A study of Mus musculus with 2 samples.

Results

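The mir-26 family of the mouse consists here of 3 microRNA genes, Mir26b, Mir26a-1 and Mir26a-2. They were found by GENCODE M21 symbol among the 1973 microRNA genes of the tables, and each lies in an intron of a Ctdsp phosphatase gene. The data are sequenced small RNAs of microRNA size from whole hearts of B6NCrl mouse embryos at embryonic day 12.5, with both sexes pooled, in 2 biological replicates of 1 library each. All samples form 1 group, without treatment or genetic change in the labels, so the design holds no contrast between conditions. The values describe the level of each member, how the members relate to each other, and how well the 2 libraries match.

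MicroRNAs are cut from hairpin precursors and guide the silencing complex to messenger RNAs, mainly through the seed, bases 2 to 8 of the mature strand. A hairpin has a 5p and a 3p arm, and each can leave a mature strand. The hosts Ctdsp1, Ctdsp2 and Ctdspl encode small phosphatases that act on the C-terminal domain of RNA polymerase II and on other proteins, and with miR-26 they are known to restrain phosphorylation of the retinoblastoma protein and so entry into the cell cycle. Known targets of miR-26 include Ezh2, which encodes a histone methyltransferase of the Polycomb group, Smad1 of BMP signalling and Gata4, a transcription factor of heart muscle.

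The mature strands are shown first, because the counts of the members turn on which bases they share. RefSeq entries on GRCm38.p6 were matched for all 3 genes and gave 5 distinct mature sequences. Capitals mark the seed, and letters run 5′ to 3′.
miR-26a-5p, from Mir26a-1 and Mir26a-2: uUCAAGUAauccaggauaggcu
miR-26b-5p, from Mir26b: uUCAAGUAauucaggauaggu
miR-26a-1-3p, from Mir26a-1: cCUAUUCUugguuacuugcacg
miR-26a-2-3p, from Mir26a-2: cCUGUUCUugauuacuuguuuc
miR-26b-3p, from Mir26b: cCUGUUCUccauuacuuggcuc

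The 5p strands of all 3 genes carry the seed UCAAGUA, and no other mature sequence of the RefSeq table has it. Mir26a-1 and Mir26a-2 give the same 5p strand. With positions counted from the 5′ end of miR-26a-5p, miR-26b-5p differs by C11U and C21U over the 21 bases compared and is 21 bases long against 22. On the 3p side each gene has a sequence of its own. The strands of Mir26a-1 and Mir26a-2 differ there at 6 of 22 positions, and the change A4G lies in the seed. The 3p strand of Mir26a-2 shares its seed, CUGUUCU, with that of Mir26b and differs from it at 4 of 22 positions. Outside the family miR-6932-3p and miR-7039-3p have the same 3p seed.

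The hairpins of the 2 copies show how far their identity reaches. In the first pair capitals mark the longest run that Mir26a-1 and Mir26a-2 share. In Mir26b they mark the 2 mature arms.
Mir26a-1: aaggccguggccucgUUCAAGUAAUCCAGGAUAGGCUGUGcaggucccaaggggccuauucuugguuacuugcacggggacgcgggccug
Mir26a-2: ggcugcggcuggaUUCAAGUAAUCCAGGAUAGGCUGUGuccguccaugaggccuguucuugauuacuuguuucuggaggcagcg
Mir26b: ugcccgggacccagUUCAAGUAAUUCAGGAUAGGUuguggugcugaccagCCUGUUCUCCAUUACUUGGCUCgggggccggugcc

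The shared run is 25 bases long. It begins at the first base of miR-26a-5p, at base 16 of the Mir26a-1 hairpin and base 14 of the Mir26a-2 hairpin, and passes the end of the mature strand. Mir26b shares at most 11 bases in a row with Mir26a-1 and 10 with Mir26a-2. Among windows of 22 bases, 4 of 69 in Mir26a-1 and 4 of 63 in Mir26a-2 were also found in the other copy, and 0 of 64 in Mir26b were found in any of the other GENCODE M21 microRNA hairpins (2201 hairpins in all). A window from the first base of miR-26a-5p was shared by the copies at 18, 20, 22 and 24 bases and belonged to 1 copy at 26 and 28 bases. Windows from the first base of each 3p strand belonged to 1 gene at every one of these lengths.

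**Figure D1:**
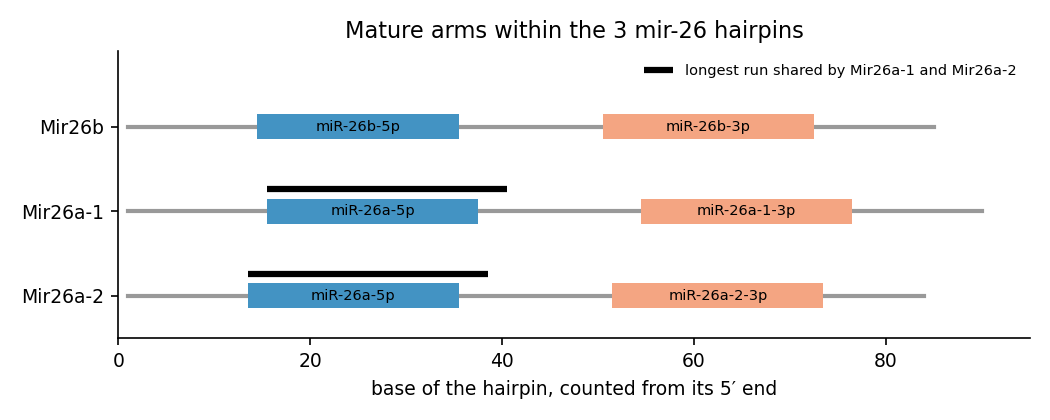
The 3 hairpins are drawn to scale by base from the 5′ end, with the 5p arm in blue, the 3p arm in orange and the longest run shared by Mir26a-1 and Mir26a-2 as a black bar. The bar of 25 bases covers the whole 5p arm of both copies and no part of the 3p arms.

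These positions matter because reads that fit several places are listed in a row of their own in the tables and are in no gene's count. Such reads numbered 2503492 in replicate 1 and 2677232 in replicate 2, or 27.1% and 25.3% of all reads. The tables do not say which microRNAs they come from, so the share of miR-26a-5p among them was not tested. For scale, they were 18.1 and 17.3 times the counts of Mir26b. The counts of Mir26a-1 and Mir26a-2 therefore measure reads that tell the copies apart, not the total of mature miR-26a, and the tables do not separate 5p from 3p reads.

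Mir26b carried nearly all counted reads of the family. It had 138161 sense counts in replicate 1 and 154439 in replicate 2. As CPM, counts per 1000000 sense counts of all microRNA genes in the library, this is 30849 (95% exact Clopper-Pearson interval 30689 to 31010) and 29250 (29107 to 29394), with a mean of 30050 ± 1131 CPM (SD, n = 2). Both libraries were high, and Mir26b took 3.005% ± 0.113 (SD, n = 2) of all sense counts. It made up 99.9% of the family's counts in each library.

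Mir26a-2 had 104 counts in replicate 1 and 108 in replicate 2. Its level was 23.2 CPM (interval 19.0 to 28.1) and 20.5 CPM (16.8 to 24.7), with a mean of 21.8 ± 1.96 CPM (SD, n = 2). Mir26a-1 was the lowest member, with 23 and 34 counts. Its level was 5.14 CPM (3.26 to 7.71) and 6.44 CPM (4.46 to 8.999), with a mean of 5.79 ± 0.922 CPM (SD, n = 2). The values of the 3 genes did not overlap, and the order of counts, Mir26b, Mir26a-2, Mir26a-1, was the same in both. Together the 2 copies had 127 and 142 counts. Intervals cover counting error only, since no molecular identifiers are stated.

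**Figure D2:**
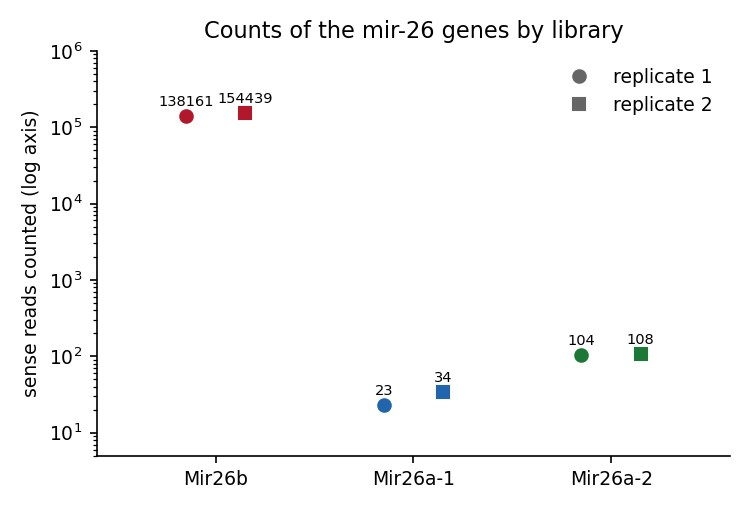
Sense reads counted for each mir-26 gene (log axis) in replicate 1 (circles) and replicate 2 (squares), with the count above each point. Mir26b stands at 138161 and 154439 reads, Mir26a-2 at 104 and 108, and Mir26a-1 at 23 and 34.

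Within a library, Mir26b exceeded Mir26a-2 by a ratio of counts of 1328 (95% exact counting interval 1096 to 1626) in replicate 1 and 1430 (1184 to 1743) in replicate 2, a mean of 1379 ± 71.8 (SD, n = 2). Over Mir26a-1 the ratio was 6007 (4003 to 9476) and 4542 (3250 to 6559), a mean of 5275 ± 1036 (SD, n = 2). Both ratios were many times their spread between libraries. The copies are counted without reads that fit both of them, which this spread does not show.

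Between the copies, Mir26a-2 exceeded Mir26a-1 by a ratio of 4.52 (2.86 to 7.45) and 3.18 (2.14 to 4.82), a mean of 3.85 ± 0.951 (SD, n = 2). The counting intervals of both libraries lay above 1. A read of miR-26a-5p alone fits both copies, so this ratio compares only reads that tell the copies apart. With 2 libraries no permutation test could pass 0.05, so no p-value is given for any ratio. A read of this size spans a whole mature strand, so levels are per read. Per base of the hairpins, which are 85, 90 and 84 bases long for Mir26b, Mir26a-1 and Mir26a-2, the ratio of Mir26b to Mir26a-2 was 1363 ± 70.9 (SD, n = 2) and that of Mir26a-2 to Mir26a-1 4.12 ± 1.02 (SD, n = 2).

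All counts of the 3 genes lay on the annotated strand. The column of the opposite strand held 0 counts for each member in both libraries, a result that allows at most 0.670 CPM (replicate 1) or 0.568 CPM (replicate 2). GENCODE M21 places no gene other than the host over any of the hairpins, on either strand.

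On GRCm38, the assembly also called mm10, the members lie on 3 chromosomes, all on the plus strand and in the direction of their hosts. Mir26b (ENSMUSG00000065468.1) lies at chr1:74394310-74394394 in Ctdsp1, Mir26a-1 (ENSMUSG00000065513.1) at chr9:119031796-119031885 in Ctdspl, and Mir26a-2 (ENSMUSG00000065430.1) at chr10:126995530-126995613 in Ctdsp2. In the coding transcript Ctdsp1-201 Mir26b lies in intron 4 of 6, which is 564 bases long. Mir26a-1 lies in intron 5 of 7 of Ctdspl-201, of 3283 bases, and Mir26a-2 in intron 5 of 7 of Ctdsp2-202, of 1946 bases. In each of these transcripts 2 further introns follow the one with the hairpin.

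The hosts differ in size, from 5777 bases for Ctdsp1 to 21259 for Ctdsp2 and 117546 for Ctdspl. Mir26b lies 2801 bases from the start of its host, Mir26a-2 16813 and Mir26a-1 105343. The hairpins of Mir26b and Mir26a-1 overlap no exon of their hosts. That of Mir26a-2 overlaps by 1 base the first exon of the shorter transcripts Ctdsp2-201 and Ctdsp2-203, which start at its last base. Host messenger RNA is not in tables of microRNA genes, so host levels are not analysed here.

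Among all genes Mir26b was placed 8 by mean level, 7 in replicate 1 and 9 in replicate 2. Its neighbours above were Mir30e at 32001 ± 2878 CPM, then Mir208b and Mir126a, and those below were Mir351 at 28244 ± 4456 CPM, Mir21a and Mir17. The values of Mir30e (29966 and 34036 CPM) and of Mir351 (25093 and 31395 CPM) overlapped those of Mir26b, so these neighbours did not differ from it beyond their spread. The other 4 neighbours did not overlap it.

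Mir26a-2 was placed 254, between Mir504 (22.8 ± 0.909 CPM) and Mir181b-1 (21.6 ± 7.20 CPM). Mir26a-1 was placed 314, between Gm26117 (5.90 ± 0.764 CPM) and Mir6945 (5.73 ± 1.68 CPM). For each of these 2 genes, the values of all 6 nearest neighbours overlapped its own, so their exact places are not fixed. Of the 712 genes with a count, whose median was 2.53 CPM, 64.3% lay below Mir26a-2 and 55.9% below Mir26a-1. Both copies were thus above the median gene while far below Mir26b.

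The tables hold 738 genes within an intron, in at least 1 transcript, of a protein-coding gene of the same strand, and 379 of them had a count, with a median of 1.14 CPM. In this set Mir26b was placed 5, Mir26a-2 99 and Mir26a-1 129.

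The 2 libraries gave like levels for the 3 members. Ratios are coded as replicate 2 over replicate 1, on the scale of log2(CPM + 1). Past 2-fold in either direction were 0 of the 3 members, against 1.58% of the 444 genes with at least 10 counts in total (7 genes), so the members' count is near this background. The median absolute log2 ratio over the 444 genes was 0.17.

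Mir26b had a log2 ratio of −0.08. The ratio of its CPM was 0.948 (95% exact counting interval 0.941 to 0.955), lower in replicate 2 beyond counting error. Among the 11 genes with total counts within 2-fold of its own, the median absolute log2 ratio was 0.10 and 5 genes differed less, so the difference lay within the usual spread of such genes. Mir26a-2 had a log2 ratio of −0.17 (CPM ratio 0.881, interval 0.667 to 1.16), and Mir26a-1 one of 0.28 (CPM ratio 1.25, interval 0.717 to 2.23). Both intervals include 1. At this depth the interval of Mir26a-1 reaches past 2-fold. Among genes of like depth, the median absolute log2 ratio was 0.26 over 57 genes for Mir26a-2 and 0.30 over 63 genes for Mir26a-1.

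**Figure D3:**
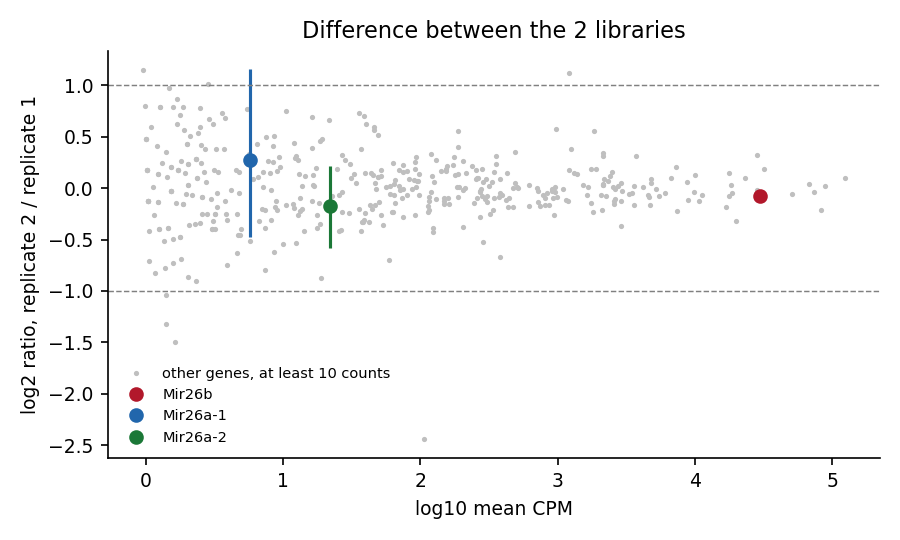
The log2 ratio of replicate 2 to replicate 1, with 1 CPM added, against log10 mean CPM for 444 genes, with the mir-26 genes in colour, vertical lines for their 95% counting intervals (computed without the added CPM) and dashed lines at 2-fold. Mir26b lies at −0.08, Mir26a-2 at −0.17 and Mir26a-1 at 0.28, all inside the dashed lines.

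The arrangement of the mir-26 family, with 2 copies of 1 mature sequence and a relative of the same seed but another sequence, was looked up in other families. Of 17 families listed by symbol, 13 had both copies in the tables, a shared mature sequence and a same-seed relative in RefSeq. The highest relative, taken from 1 to 5 relatives a family, was the highest member in 11 of the 13, mir-26 among them. The mir-181a and mir-181b families share their highest relative, Mir181c, so they are not separate cases. The ratio of the highest relative to the higher copy had a median of 43.8 over the 13 families. For mir-26, at 1379, it was the highest of the 13. No test was made of this order, and the copies of each family share the limit on reads that fit several places.

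The family most like mir-26 in build is mir-103/107, whose genes lie in introns of the pantothenate kinase genes. There Mir107, with its own mature sequence, had 2082 ± 64.1 CPM, and the copies Mir103-2 and Mir103-1 had 49.3 ± 12.5 and 3.36 ± 0.334 CPM. The ratio of Mir107 to Mir103-2 was 43.8 ± 12.5 (SD, n = 2). The mir-26 ratio of 1379 ± 71.8 (SD, n = 2) was higher in both libraries. The mir-30 family came next to mir-26, with Mir30e over Mir30c-1 by a ratio of 491 ± 25.8 (SD, n = 2). The mir-92a and mir-7a families had the other order. Mir92-1, a copy, had 2394 CPM and its highest matched relative Mir25 had 429 CPM.

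**Figure D4:**
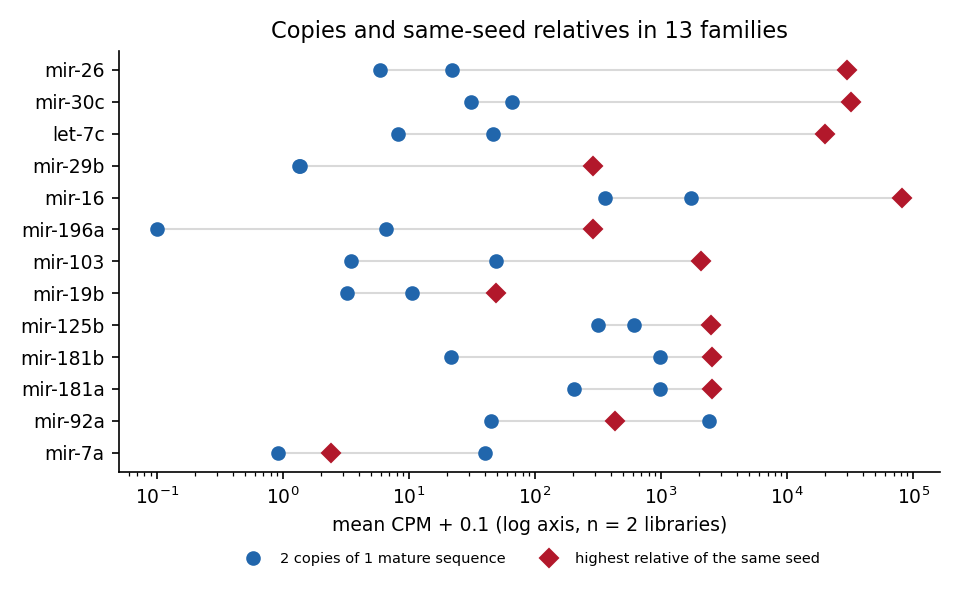
Mean CPM plus 0.1 (log axis) of both copies of 1 mature sequence (blue circles) and of the highest same-seed relative (red diamonds) in 13 families, sorted by the ratio of relative to higher copy. The mir-26 family, at the top, has its copies at 5.79 and 21.8 CPM and Mir26b at 30050 CPM, and in mir-92a and mir-7a a copy lies highest.

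RefSeq mature sequences were matched for 916 of the 1973 genes. Among these, 53 genes share some but not all of their mature sequences with another gene, as Mir26a-1 and Mir26a-2 do. Of the 53, 46 had a count, with a median of 33.3 CPM, and both mir-26a genes lay below that median. The 53 genes took 0.914% of the sense counts, and 2 of them reached 1000 CPM. The 829 matched genes that share no mature sequence with another matched gene, Mir26b among them, took 88.1%. Of these 556 had a count, with a median of 2.58 CPM, and 72 reached 1000 CPM. Both mir-26a genes lay above this median. Reads that fit several places are in none of these counts. How many of them come from genes that share a mature sequence was not tested. The shares therefore do not measure how much mature microRNA each set of genes makes.

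Other microRNA genes of the same known roles were set beside the members. Among microRNAs known to restrain the step from G1 to S phase, 14 of 15 listed were matched. Of these Mir322 alone, at 82265 ± 8376 CPM, stood above Mir26b, and 13 stood below it. Over all 712 genes with a count, 7 stood above Mir26b, so standing below it is common to nearly all genes. The list includes Mirlet7g (19813 ± 3133 CPM) and Mir15a (2152 ± 36.3 CPM), and its lowest matched members were Mirlet7a-1 (27.1 CPM) and Mir34b (27.0 CPM), just above Mir26a-2. Counts of Mir26a-2 leave out reads that fit both copies. The median of the list was 779 CPM, against 2.53 CPM over all genes with a count. Of the cluster of Mir17, which promotes that step, all 6 matched members stood below Mir26b, led by Mir17 at 23223 ± 1149 CPM. Their median was 2985 CPM, above the 779 CPM of the restraining list.

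Among microRNAs that, like miR-26, are known to repress Ezh2, the 3 matched were Mir214 (3455 ± 73.5 CPM), Mir101b (1649 ± 56.0 CPM) and Mir101a (254 ± 11.3 CPM). All lay below Mir26b, as did nearly all genes with a count, and above both mir-26a genes. The counts of the mir-26a genes leave out reads that fit both copies, so this order does not rank mature miR-26a. Among 8 genes in introns of paralogous hosts (pantothenate kinases, Slit genes and myosin heavy chains), Mir208b alone stood above Mir26b. Of the 8, Mir103-1 alone stood below Mir26a-1, against 55.9% of all genes with a count.

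The libraries held 9235580 and 10601121 reads, of which 4478599 and 5279908 were sense counts of microRNA genes. The label of heart was checked against the microRNAs of heart muscle in myosin introns, Mir208b, Mir208a and Mir499, which took 6.29% of the sense counts. Other genes of heart muscle, named after their values were seen, had few counts, with 11 and 25 counts of Mir1a-1 in replicates 1 and 2, 4 and 13 of Mir133a-1, and 2 and 8 of Mir133a-2. These too are numbered as copies by symbol, and reads that fit several places are not in their counts. No shared mature sequence was matched for Mir133a-1 and Mir133a-2. Mir133b, listed as their relative and not numbered as a copy, had 25 and 20 counts. Markers of other cell types were present as well, with endothelial Mir126a at 6.79% and smooth muscle Mir143 and Mir145a together at 8.96%. Mir143 held nearly all of the smooth muscle share, at 88442 CPM against 1204 CPM for Mir145a. Erythroid, liver, white blood cell and epithelial markers took 0.137%, 0.0107%, 0.0316% and 0.0573%. Neural Mir124a-1 and Mir124a-2 held 1 count in all, but they are copies of the same microRNA, so reads that fit both are left out and this count does not measure neural RNA. Erythroid Mir451a and hepatocyte Mir122 differed past 2-fold between the libraries, at 770 and 1671 CPM and at 181 and 32.4 CPM in replicates 1 and 2, while the mir-26 genes did not. The other erythroid marker, Mir144, did not follow Mir451a, at 156 and 140 CPM. The tissue is whole heart, so fewer cells of a type and less RNA per cell cannot be told apart, and the cells that make miR-26 were not tested.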

How the data were processed

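Small RNA from 2 heart libraries was quantified by the authors as raw counts of reads per microRNA gene, 1 deposited table per library, on assembly mm10 (per the labels) with annotation M4 (per the text files deposited beside them). Which aligner and which counter were used is not given in the sources used here. The 3 columns of counts have no names and were read from their values as counts on either strand, the gene's strand (used here) and the opposite strand. The 4 rows that name no gene were left out of library sizes. They held 27.1% and 25.3% of reads as fitting several places, 18.1% and 19.1% as unmapped, 6.29% and 5.88% outside microRNA genes and 0 as ambiguous.

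Symbols, positions and introns came from GENCODE M21, in which 1894 of 1973 identifiers were found, and sequences from RefSeq on GRCm38.p6. The hairpins of the 3 members matched the M21 transcripts exactly. CPM was taken over the sum of sense counts. Intervals are exact, at 95%, and a count of 0 was taken to allow 3 counts. Comparisons of libraries used genes of at least 10 counts in total, a 2-fold limit and a pseudocount of 1 CPM. No test was made, since the design has 1 group. TMM from edgeR 4.0.16 and size factors from DESeq2 1.42.0 in R 4.3.3 served as alternative scalings only. Other steps used Python 3.11.15, numpy 2.4.6, pandas 2.3.3, scipy 1.17.1 and matplotlib 3.10.9.

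The genes named are the members, the 3 next above and the 3 next below each in mean level, and members of the lists of families, cell cycle, Ezh2, hosts and cell types, with at most 3 families by value. The members and lists were chosen with earlier results of these data known. Whether the 2 libraries came from separate litters is not stated.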

Additional observations from a re-analysis of the deposited data

Results flagged for a closer look

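Reads that fit several places made up 26.2% of all reads on average over the 2 libraries, and the comparisons of the mir-26 genes do not use them. They are listed here because they lie outside the gene counts and are above 0, with no control sample to set them against. A read that lies within the 25 bases shared by both copies has 2 places among the hairpins. The number of such reads from Mir26a-1 and Mir26a-2 was not tested.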

How the results depend on the processing

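Over all reads of the library in place of sense counts, the levels were 14764 for Mir26b, 10.7 for Mir26a-2 and 2.85 for Mir26a-1 per 1000000 reads. Over sense counts and reads that fit several places together, they were 19598, 14.2 and 3.78. With counts of either strand the level of Mir26b was 28729 CPM. Each of these has a larger denominator by construction. With TMM the log2 ratio of Mir26b between libraries was −0.0564, outside its counting interval. With at least 100 counts in total, 2 of 286 genes passed 2-fold between the libraries, against 7 of 444. With 2 libraries, a value without either replicate always lies within 1 SD of the mean, so these ranges show the spread and not stability. Leaving out each replicate in turn, levels ranged from 29250 to 30849 CPM for Mir26b, 20.5 to 23.2 for Mir26a-2 and 5.14 to 6.44 for Mir26a-1, and the order of the 3 genes held in both. The ratio of Mir26b to Mir26a-2 ranged from 1328 to 1430, that of Mir26b to Mir26a-1 from 4542 to 6007, and that of Mir26a-2 to Mir26a-1 from 3.18 to 4.52. Ratios between members could not change with the strand column, since the opposite strand held 0 counts. The number of families with a relative highest was 11 in each library and with either strand. Ratios per base of the hairpin were added after the data were seen. Depth limits Mir26a-1 most, at 23 and 34 counts. No paired analysis was possible because all samples form 1 group.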
